A study of Mus musculus with 6 samples.

Results

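The Ikaros family of zinc finger transcription factors was followed in mouse iNKT cells, the invariant natural killer T lymphocytes that recognise lipids. Its 5 members are Ikzf1 (Ikaros), Ikzf2 (Helios), Ikzf3 (Aiolos), Ikzf4 (Eos) and Ikzf5 (Pegasus). They were taken by symbol: a row of the expression table was used where the platform annotation gave a listed member as its only gene symbol, and all 5 members were found among the 22180 genes measured. Each member had 1 row, so neither splice isoforms nor separate probes of a gene could be compared.

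Ikaros family proteins bind DNA through zinc fingers near the amino terminus and pair with each other through a second set of zinc fingers near the carboxyl terminus, so that members form homodimers and heterodimers. They recruit chromatin remodelling and deacetylase complexes, above all NuRD (nucleosome remodelling and deacetylase), and can both repress and activate genes. In lymphocytes Ikaros is needed for B and T cell development, Aiolos is abundant in mature B cells and in some effector T cells, and Helios and Eos are known from regulatory T cells. PLZF, encoded by Zbtb16, is a zinc finger factor of another family that iNKT cells need to acquire their innate-like effector program.

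The study compared wild type (WT) mice with PLZF_ON mice, in which the PLZF protein is permanently acetylated, with 3 arrays in each group. The labels name iNKT cells for all 6 samples, although the extraction protocol speaks of frozen tissue, and the sources used here give neither age, organ and cell isolation nor how the PLZF_ON allele was made. Total RNA was biotin-labelled and hybridised to Affymetrix whole-transcript arrays, and the deposited values are log2 levels. The design text names replicates 1 and 2 of each group as the arrays analysed, so a comparison over these 4 arrays stands beside another over all 6.

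The T cell markers measured, 7 in number, were all above background, and Zbtb16 lay between 9.54 and 10.68 on the 6 arrays; PLZF_ON alters the protein, so this mRNA level does not check the genotype. Background here means the 95th percentile of the mean levels of 1390 olfactory and vomeronasal receptor genes, which was 5.21 on the log2 scale. PLZF_ON replicate 3 stood apart. Over all rows it correlated with the other arrays at 0.895 to 0.898, while the other arrays correlated among themselves at 0.957 to 0.973. Its values also had a narrower spread over all rows, with an SD of 1.79 against 1.97 to 2.01 on the other arrays. The 6 measured immature thymocyte markers summed to between 161 and 179 on the linear scale in WT, to 163 and 176 in PLZF_ON replicates 1 and 2, and to 1326 in PLZF_ON replicate 3. The labels do not tie replicates to separate animals, and p-values therefore reflect the spread among these samples alone, which may be technical. In bulk samples such as these, fewer cells that express a gene and less RNA per cell cannot be told apart.

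Aiolos was the member that differed most between the genotypes. The log2 level of Ikzf3 was 9.27, 8.89 and 8.95 across the WT replicates (numbers 1, 2 and 3, an order kept for all genes here), whereas the PLZF_ON replicates gave 7.46, 6.76 and 6.62. All PLZF_ON arrays lay below all WT arrays, with a gap of 1.43 between the lowest WT and the highest PLZF_ON value, against a range of 0.39 within WT and of 0.84 within PLZF_ON. The WT mean was 9.04 ± 0.21 (SD, n = 3) and the PLZF_ON mean 6.95 ± 0.45 (SD, n = 3), both above background.

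Over all 6 arrays Ikzf3 fell by 2.09 on the log2 scale, which is 4.26-fold (SE 0.25, 95% interval -2.66 to -1.52, limma adjusted p = 0.0454). Over the 4 arrays its log2 difference was -1.97, or 3.92-fold lower (SE 0.26, 95% interval -2.61 to -1.33), and the adjusted p of limma was 0.0750, above the threshold of 0.05 (unadjusted p = 2.63e-04). By unadjusted p Ikzf3 was at rank 16 of 23521 tested rows over 6 arrays and at rank 80 over 4. In all, 0.0893% of rows lay as far below WT as Ikzf3 or further over 6 arrays, and 0.111% over 4.

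With an array left out, the Ikzf3 log2 difference ran from -2.32 to -1.62 over 4 arrays and from -2.35 to -1.93 over 6. The 6-array call did not hold throughout. Without PLZF_ON replicate 3, the array that stood apart, the log2 difference was -1.93 (limma adjusted p = 0.0271), and without PLZF_ON replicate 1 it was -2.35 (adjusted p = 0.0409). The call was lost without WT replicate 1 (adjusted p = 0.303), WT replicate 2 (0.203), WT replicate 3 (0.244) or PLZF_ON replicate 2 (0.122), with log2 differences between -2.17 and -1.97. It was also lost with a variance trend (adjusted p = 0.0561), with each array centred on its median (0.0735), and when all deposited rows were tested together (0.207). The call held with array weights (adjusted p = 0.00536), brighter rows (0.0354) and replicate number as a block (0.0370). It also held with averaged rows per gene (0.0402) and with quantile normalization (0.0421), so 7 of 14 alternatives kept it. Within each replicate number PLZF_ON was lower than WT, by 3.52-fold, 4.37-fold and 5.03-fold for numbers 1, 2 and 3, although the labels do not say that equal numbers were paired.

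**Figure D1:**
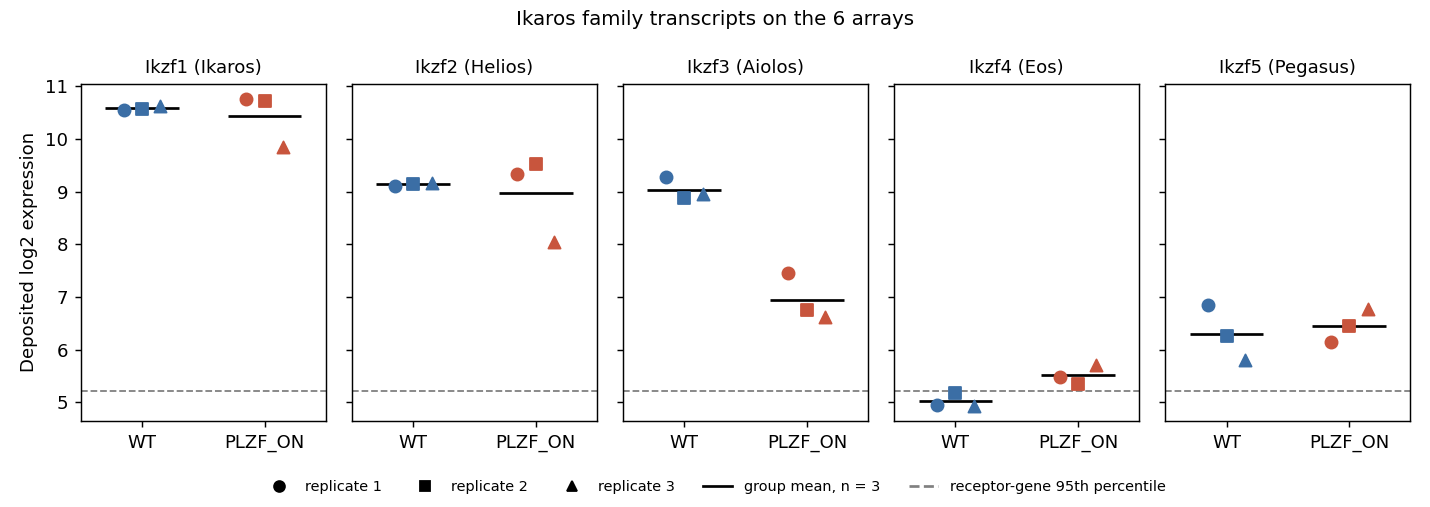
Deposited log2 level (vertical axis) of each Ikaros family member on the 6 arrays, with WT in blue, PLZF_ON in red, a symbol for each replicate number, black lines at the mean of 3 arrays and a dashed line at the background percentile of 5.21. The Ikzf3 groups are separated by 1.43, whereas PLZF_ON replicate 3 lies apart from the other PLZF_ON arrays for Ikzf1 and Ikzf2.

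Because Aiolos is abundant in B cells, their markers were read on the same arrays. Of 9 listed B cell markers 8 were measured, and 0 of these had a mean above background. Over the 4 arrays 4 were higher and 4 lower (median log2 difference -0.04). Cd79b and Cd79a, signalling chains of the B cell receptor, had log2 differences of -0.30 (limma adjusted p = 0.693) and 0.24 (adjusted p = 0.752). Cd22 was at -0.11 (adjusted p = 0.881), and its PLZF_ON values lay below all WT values on the 6 arrays. Ms4a1, which encodes CD20, lay between 2.79 and 3.36 on all 6 arrays. Summed on the linear scale, the 8 markers ranged from 139 to 151 in WT and from 138 to 164 in PLZF_ON. These sums overlapped between the groups. Of the 3 plasma cell markers, which belong to the same lineage, Jchain, the joining chain of secreted antibodies, lay between 2.84 and 3.36 on all 6 arrays, below background, and Xbp1 had a log2 difference of 0.23 over the 4 arrays (adjusted p = 0.734). Sdc1, a proteoglycan of plasma cells that other cells also carry, was lower on the arrays where Ikzf3 was lower. It was at 6.83, 7.24 and 6.61 in WT and at 5.14, 5.46 and 4.73 in PLZF_ON, without overlap, with log2 differences of -1.74 over 4 arrays (adjusted p = 0.0560) and -1.78 over 6 (adjusted p = 0.0714), while its second row was at -0.22 and -0.07. Summed on the linear scale, the 3 plasma cell markers ranged from 202 to 277 in WT and from 162 to 203 in PLZF_ON. The part of B lineage cells in the Ikzf3 difference was not tested.

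Ikaros itself passed the test in neither comparison. Ikzf1 was at 10.56, 10.57 and 10.62 in WT, and at 10.76, 10.72 and 9.85 in PLZF_ON. Its WT values spanned 0.069, the PLZF_ON values of replicates 1 and 2 lay just above them, and that of replicate 3 lay below. Over the 4 arrays the log2 difference was 0.17 (SE 0.13, 95% interval -0.14 to 0.49, limma adjusted p = 0.786). Over 6 arrays it was -0.14 (SE 0.25, 95% interval -0.73 to 0.44, adjusted p = 0.951), so the direction depended on PLZF_ON replicate 3.

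Helios showed a similar arrangement of arrays and did not pass either. Ikzf2 was at 9.11, 9.14 and 9.16 in WT, and at 9.33, 9.52 and 8.04 in PLZF_ON. PLZF_ON replicates 1 and 2 lay above all WT values and replicate 3 lay 1.12 below WT replicate 3. The log2 difference was 0.31 over 4 arrays (SE 0.14, 95% interval -0.03 to 0.64, limma adjusted p = 0.593) and -0.17 over 6 (SE 0.36, 95% interval -1.01 to 0.67, adjusted p = 0.959). For both genes the direction over 6 arrays was turned by leaving out PLZF_ON replicate 3, to 0.15 for Ikzf1 and 0.29 for Ikzf2. That array also held the immature thymocyte markers and the narrower spread given above. The part of either in the low Ikzf1 and Ikzf2 values was not tested. With quantile normalization repeated, the 6-array log2 differences were -0.010 for Ikzf1 and -0.034 for Ikzf2.

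Eos was near background. Ikzf4 was at 4.96, 5.18 and 4.93 in WT, and at 5.48, 5.36 and 5.71 in PLZF_ON. All PLZF_ON values lay above all WT values, by a gap of 0.17, and the background percentile of 5.21 fell between the groups. The log2 difference was 0.35 over 4 arrays (SE 0.15, 95% interval -0.01 to 0.71, limma adjusted p = 0.551) and 0.49 over 6 (SE 0.17, 95% interval 0.11 to 0.87, unadjusted p = 0.0185, adjusted p = 0.672), and passed in neither. Foxp3, the defining factor of the regulatory T cells in which Eos and Helios are best known, lay between 5.02 and 5.14 on all arrays but PLZF_ON replicate 3, where it was at 5.60.

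Pegasus, the member least like the others in its DNA binding, overlapped between the groups. Ikzf5 was at 6.84, 6.26 and 5.81 in WT, and at 6.15, 6.45 and 6.76 in PLZF_ON. Its spread within WT, 1.03, was the widest of the 5 members there. The log2 difference was -0.25 over 4 arrays (SE 0.23, 95% interval -0.80 to 0.30, limma adjusted p = 0.844) and 0.15 over 6 (SE 0.28, 95% interval -0.50 to 0.81, adjusted p = 0.951). Its sign also turned without WT replicate 1 over 4 arrays (0.039), and over 6 arrays without WT replicate 3 (-0.096) or PLZF_ON replicate 3.

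Over the 4 arrays 0 of the 5 members passed a limma adjusted p of 0.05, against 0.17% of all rows, and 1 of 5 had an unadjusted p under 0.05, against 9.41%. The groups did not overlap for 4 of 5 members over these 4 arrays, against 38.2% of rows. Of these, PLZF_ON was higher in 3 (18.9% of rows) and lower in 1 (19.3%). Over 6 arrays 1 of 5 passed, Ikzf3, against 0.0935% of rows in either direction and 0.068% lower. An unadjusted p under 0.05 was reached by 2 of 5, Ikzf3 and Ikzf4, against 5.77% of rows. The groups did not overlap for these same 2 members over 6 arrays, against 11.8% of rows, with Ikzf3 lower (6.22%) and Ikzf4 higher (5.55%). The median log2 difference of the members was 0.17 over 4 arrays and -0.14 over 6, beside -0.0040 and 0.026 for all genes.

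**Figure D2:**
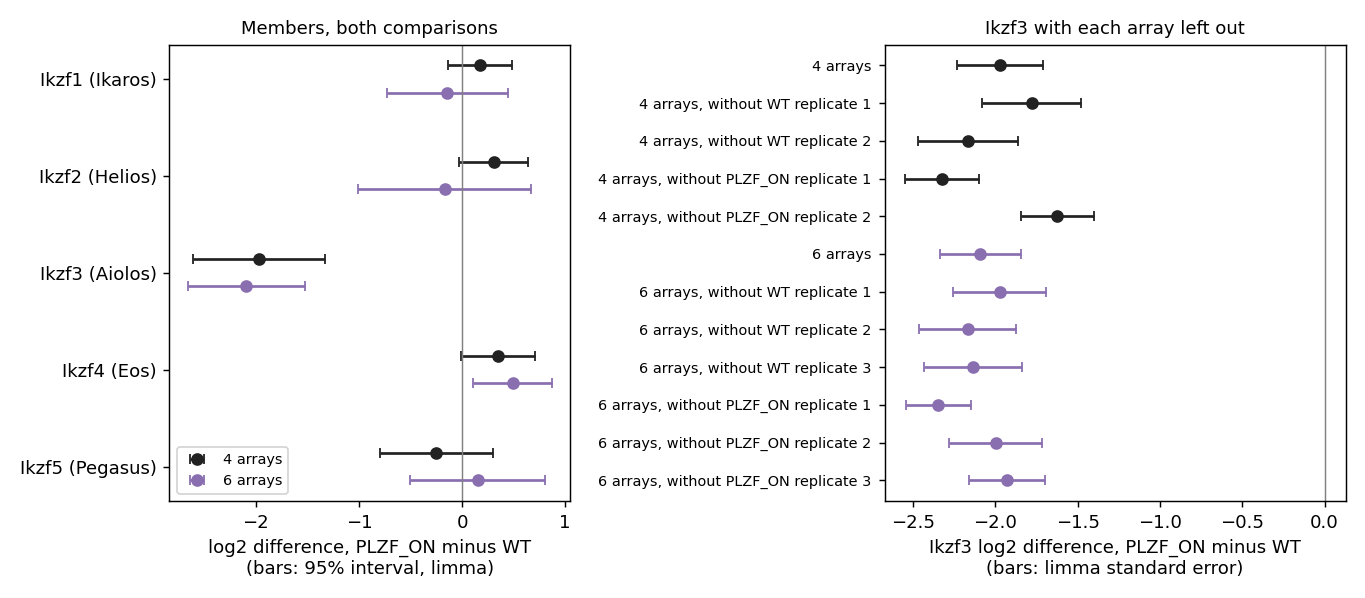
Left, log2 difference of each member (PLZF_ON minus WT, horizontal axis) over 4 arrays in black and 6 arrays in purple, with bars for the 95% interval of limma; right, the Ikzf3 difference with each array left out in turn, with bars for the standard error. Ikzf3 lies between -2.35 and -1.62 in every fit shown, and the 4-array intervals of the other members include 0.

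The difference between Aiolos and the other members was read within each array, by subtracting the log2 level of each other member from that of Ikzf3. Ikzf3 had already separated the groups, and all 4 comparisons reuse its values. They are therefore neither independent of each other nor separate support for its difference. An offset common to all genes of an array cancels in this measure, while a narrower spread, as on PLZF_ON replicate 3, does not. Only the change of the measure between groups is read, since levels of different probes cannot be set against each other. Relative to Ikzf1, Ikzf3 was lower in PLZF_ON, with a log2 difference of -1.95 and SDs of 0.23 in WT and 0.40 in PLZF_ON (n = 3 each). Relative to Ikzf2 the change was -1.92, relative to Ikzf4 -2.58 and relative to Ikzf5 -2.24. In all 4 comparisons the 3 PLZF_ON arrays lay below the 3 WT arrays, with gaps from 1.13 to 1.72. The two-sided exact permutation test gave p = 0.1 for each of the 4, and 0.1 after Benjamini-Hochberg adjustment, which is the smallest p that 3 arrays against 3 allow, so this design could not reach 0.05.

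**Figure D3:**
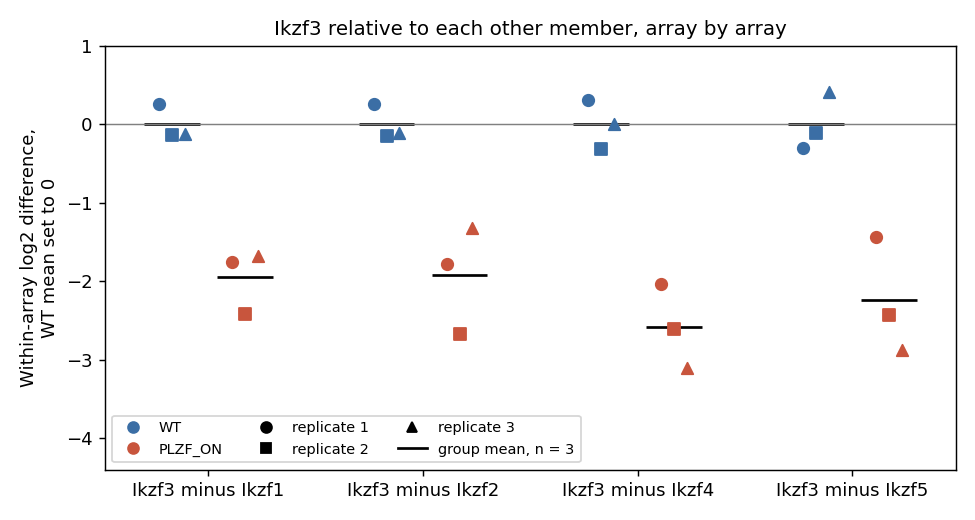
Ikzf3 minus each other member within the same array (log2, vertical axis), shifted so that the WT mean of each comparison is at 0; blue symbols are WT, red symbols PLZF_ON, with a symbol for each replicate number and black lines at the mean of 3 arrays. All PLZF_ON arrays lie below all WT arrays in each of the 4 comparisons, with mean changes from -2.58 to -1.92.

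The genes whose pattern was most like that of each member were sought among 11081 other genes at or above the median row mean, by Pearson correlation of log2 values over the 6 arrays, given as a description. For Ikzf3 these were Plekhb2 (r = 0.999), Bmp7 (0.996) and Mgat4a (0.992). Plekhb2, a pleckstrin homology domain protein, was between 6.08 and 6.16 in WT and between 5.55 and 5.75 in PLZF_ON, a far smaller log2 difference (-0.50 over 6 arrays, limma adjusted p = 0.520). Bmp7, a bone morphogenetic protein, was between 7.47 and 7.71 in WT and between 6.20 and 6.56 in PLZF_ON, with a log2 difference of -1.19 (adjusted p = 0.0714). Mgat4a, a glycosyltransferase that branches N-linked glycans, was between 7.15 and 7.26 in WT and between 5.87 and 6.14 in PLZF_ON. Its log2 difference was -1.21 over 6 arrays (adjusted p = 0.0489) and -1.17 over 4 (adjusted p = 0.0702). An r over 0.95 with Ikzf3 was reached by 104 genes. All were picked, on these same arrays, for likeness to a member whose groups already differed. Their lower PLZF_ON values thus followed largely from the choice and are not separate support for the Ikzf3 difference.

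PLZF_ON replicate 3 was the lowest array for Ikzf1 and Ikzf2 and for the 6 genes most like them. Ikzf1 was most like Nhlrc2, Heatr1 and Numb (each with r between 0.997 and 0.998), and 689 genes had an r over 0.95 with it. Ikzf2 was most like Kmt5b, a histone H4 methyltransferase (r = 0.997), Brk1 and Ppm1g (both 0.996), and 592 genes had an r over 0.95. Ikzf4 was most like Exoc7 (r = 0.995), Tm9sf1 and Unc119b (0.980 each), and Ikzf5 most like Zbtb2 (0.991), Zadh2 (0.987) and Tpcn2 (0.980), with 18 and 8 genes over an r of 0.95. None of these 12 genes passed limma over 4 or 6 arrays, with adjusted p-values from 0.384 upwards. They were picked for likeness, on these same arrays, to members that did not pass. This outcome and the low PLZF_ON replicate 3 values of the 6 genes thus followed largely from the choice.

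The tested genes next to each member in the gene table were also read. On either side of Ikzf3 lie Mien1 and Zpbp2. Mien1, at a mean of 8.34, had a log2 difference of -0.06 over 4 arrays (SE 0.13, limma adjusted p = 0.956) and -0.12 over 6 (SE 0.19, adjusted p = 0.944). Zpbp2, a gene of sperm binding to the egg coat, was below background at a mean of 3.87, with log2 differences of -0.38 (adjusted p = 0.656) and -0.31 (adjusted p = 0.941). Neither neighbour of Ikzf3 passed, and both estimates lay above the 95% interval of Ikzf3. The neighbours of the other members, Spata48 and Fignl1 for Ikzf1, Erbb4 and Spag16 for Ikzf2, Rps26 and Suox for Ikzf4, and Acadsb and a RIKEN clone gene for Ikzf5, had 4-array log2 differences from -0.19 to 0.38 and did not pass either. Pstk, whose gene overlaps Ikzf5 in the table, had a difference of -0.07 (adjusted p = 0.941), and a signal from one in the value of the other cannot be told apart by these rows.

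Ikaros proteins act through corepressor complexes, and none of the transcripts of these partners passed the test. Of 17 genes for NuRD subunits and other corepressors, all measured, 8 were higher and 9 lower over the 4 arrays, with a median log2 difference of -0.02, and 0 passed limma. An unadjusted p under 0.05 was reached by 2 of them, or 11.8%, against 9.19% of all genes. Those were Mta3, a NuRD subunit, at -0.48 (SE 0.15, adjusted p = 0.387), and Gatad2a, another NuRD subunit, at -0.39 (SE 0.14, adjusted p = 0.439). Mta3 was lower on all 3 PLZF_ON arrays (7.41 to 7.63) than on all WT arrays (7.91 to 8.10). Chd4, the NuRD remodelling ATPase, had a difference of 0.18, and Hdac1, its deacetylase, of -0.26 (adjusted p = 0.684). Ctbp1, a corepressor that Eos recruits, was at 0.20 (adjusted p = 0.774).

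The stability and DNA binding of Ikaros proteins are set by modifying enzymes. Cereblon (Crbn), the substrate receptor through which lenalidomide-type drugs direct Ikaros and Aiolos to degradation, had a 4-array log2 difference of -0.12 (SE 0.17, limma adjusted p = 0.920). Of 11 listed genes of the cereblon ligase, casein kinase 2 and protein phosphatase 1, 9 were measured, 4 higher and 5 lower (median -0.02), and 0 passed. By unadjusted p 2 of 9, or 22.2%, were under 0.05, against 9.19% of all genes. Those were Ppp1cc, a phosphatase catalytic subunit (-0.65, adjusted p = 0.309), and Csnk2a2, a kinase catalytic subunit (0.39, adjusted p = 0.430), but in both the groups overlapped once replicate 3 was included. Csnk2a1, the other kinase subunit, was at 0.21 (adjusted p = 0.740).

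Ikaros is known to oppose Notch target genes in developing T cells. Of 12 Notch pathway genes, all measured, 5 were higher and 7 lower over the 4 arrays (median -0.10), and 0 passed limma, while 4 of 12, or 33.3%, had an unadjusted p under 0.05, against 9.19% of all genes. Rbpj, the DNA-binding factor of the pathway, had a log2 difference of -0.76 (SE 0.19, adjusted p = 0.260), and its second row -0.46. Nrarp, a feedback inhibitor of Notch, was at -0.89 (SE 0.31, adjusted p = 0.433), but its mean over the 6 arrays, 5.145, was below background. Dtx1, the Notch-induced Deltex ubiquitin ligase, was at -0.39 (SE 0.13, adjusted p = 0.422), with -0.94 in its second row. Hes1, a repressor induced by Notch, was at 0.51 (SE 0.20, adjusted p = 0.491).

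A further list held genes linked in the literature to control by Ikaros family members, chosen with earlier results of these data in view. Of its 18 genes 17 were measured, 7 higher and 10 lower over the 4 arrays (median -0.07), and 0 passed limma, while 4, or 23.5%, had an unadjusted p under 0.05, against 9.19% of all genes, a share the choice of the list could raise. Tbx21, which encodes T-bet, was at 8.76, 8.42 and 8.56 in WT and at 7.37, 6.75 and 7.58 in PLZF_ON (-1.53 over 4 arrays, SE 0.24, adjusted p = 0.102). Cd4, the coreceptor, was at 8.01, 7.80 and 7.56 in WT and at 9.46, 8.90 and 8.91 in PLZF_ON (1.28 over 4 arrays, SE 0.21, adjusted p = 0.115). Neither gene had overlapping groups on the 6 arrays. Stat4, the mediator of interleukin-12 signals, was at -1.51 (SE 0.61, adjusted p = 0.521), with PLZF_ON replicate 2, at 6.27, the lowest of the 6 arrays by over 2 log2 units. Satb1, a chromatin organiser, was at 0.44 (adjusted p = 0.438). Il2, which Aiolos, Helios and Eos are known to silence, was between 2.70 and 3.12 on all 6 arrays, below background in both groups.

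Of 8 regulatory T cell genes, all measured, 3 were higher and 5 lower over the 4 arrays (median -0.06), and 0 passed limma, while 2, or 25%, had an unadjusted p under 0.05, against 9.19% of all genes. Of the 8 genes, 4 had a mean above background. Gpr83, a receptor marking these cells, was at 0.85 (SE 0.16, adjusted p = 0.152), at 4.27 to 4.67 in WT and 4.46 to 5.36 in PLZF_ON. Only its value on PLZF_ON replicate 1, 5.36, lay above background, and its groups overlapped over 6 arrays. Tnfrsf4, the OX40 receptor, was at 0.39 (adjusted p = 0.471), Lrrc32, which presents latent TGF-beta, at 0.31 (adjusted p = 0.582), and Ctla4 at -0.29 (adjusted p = 0.650). The mean levels of Lrrc32 (4.32) and Ctla4 (4.28) were below background.

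**Figure D4:**
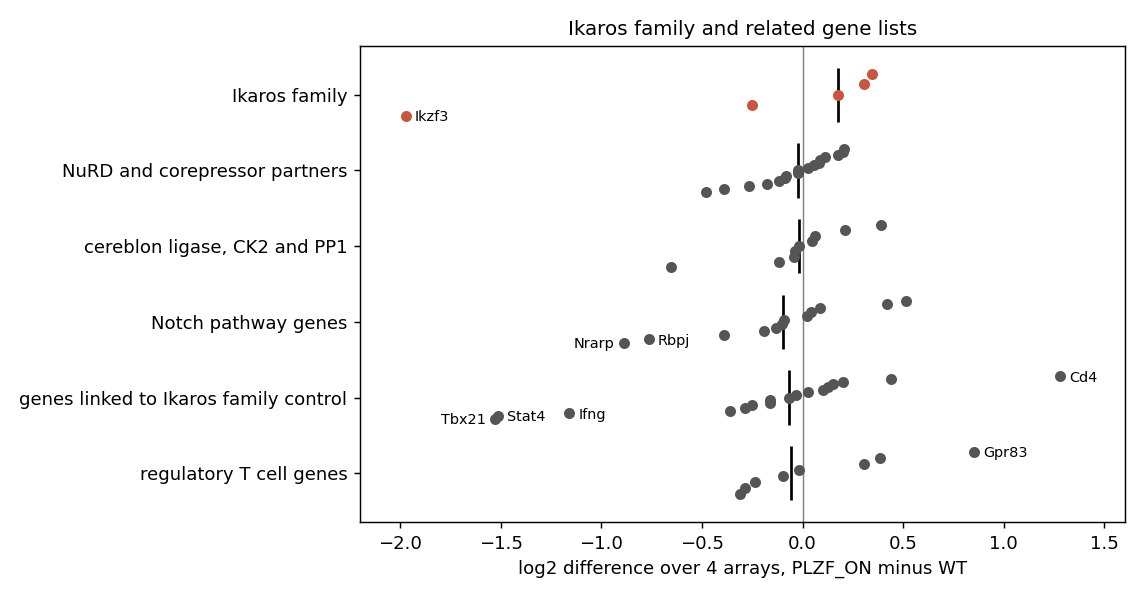
Log2 difference over the 4 arrays (PLZF_ON minus WT, horizontal axis) of the 5 Ikaros family members in red and of the measured genes of 5 related lists in grey, one point per gene, with black lines at the median of each group and names for genes at least 0.75 from 0. Ikzf3 lies further below 0 than any gene of the 5 lists, and the list medians lie between -0.10 and -0.02.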

How the data were processed

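Expression was measured in 6 iNKT cell samples, 1 array each. The authors deposited log2 values per array row. The submitters' processing notes name RMA, without version, a method that corrects background, equalises array distributions and summarises probes. The deposited arrays nevertheless did not share a distribution. The median was 5.01 for PLZF_ON replicate 3 and 4.88 to 4.92 for the others, and the SD 1.79 against 1.97 to 2.01. The sources used here do not give the genome build or annotation. Of 41345 rows, the 23521 with exactly 1 symbol in the platform annotation were tested, the brightest row standing for a gene with several. Groups came from the titles. limma 3.58.1 in R 4.3.3 (lmFit, eBayes, two-sided) was fitted over all tested rows with genotype as the only term, with Benjamini-Hochberg adjustment at 0.05; standard errors and intervals are moderated. Residual degrees of freedom were 2 over 4 arrays and 4 over 6, and the number of arrays limits the precision. Named genes were the members, up to 4 genes per list with the smallest p, the 3 genes most like each member and its neighbours in the gene table of assembly GRCm38.p6; Chd4, Il2, Foxp3, Cd79a and Ms4a1 were added for their roles. Members and lists were chosen with earlier results of these data known. The scripts were tested on simulated data. Alternatives tried were a replicate block, each array left out, brighter rows, a variance trend, quantile normalization, median centring, all deposited rows, array weights and averaged rows per gene. Deviations of equal replicate numbers correlated at 0.092, 0.253 and 0.239, and those of unequal numbers between -0.235 and 0.124. The labels do not give a pairing, so equal numbers were not treated as pairs in the main fits. Whether equal numbers were processed together was not tested. Figures were drawn with matplotlib 3.10.9.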

Additional observations from a re-analysis of the deposited data

How the results depend on the processing

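Under all alternatives run, Ikzf3 was lower in PLZF_ON (-2.32 to -1.62 over 4 arrays, -2.35 to -1.93 over 6), and Ikzf4 was higher without passing. With the replicate number as a block, a pairing the labels do not give, 1 member passed over 4 arrays, Ikzf3 (-1.97, limma adjusted p = 0.0218). In that fit 1 gene of the related lists passed, and 101 rows in all. Over 6 arrays Ikzf3 kept its call with the block (adjusted p = 0.0370) but 0 members passed with a variance trend (-2.09), median centring (-2.11) or all deposited rows (-2.09). With all deposited rows more tests were made, and the SE of Ikzf3 was 0.260 against 0.245 in the main fit. The causes of the lost calls were not tested. Leaving out each array gave 0 to 1 members passing over 6 arrays. Over 4 arrays this leaves 1 array in a group, and that array is assumed to vary like the other group. With array weights the 6-array signs of Ikzf1 (0.12), Ikzf2 (0.24) and Ikzf5 (-0.053) turned. Leaving out arrays gave ranges of -0.30 to 0.15, -0.45 to 0.29 and -0.096 to 0.42 for these genes over 6 arrays, and of -0.54 to 0.039 for Ikzf5 over 4. Rows passing numbered 40 over 4 arrays (0 with all deposited rows, 0 to 106 with an array left out) and 22 over 6 (5 median centred, 0 with all deposited rows, 259 with array weights, 0 to 107 with an array left out).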

Other observations

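Beside the Ikaros family, markers of other cells were read over the 4 arrays, and 0 of them passed limma. Of 7 T cell markers 3 were higher and 4 lower (median log2 difference -0.19), with Cd5, an inhibitor of T cell receptor signals, at 0.77 (adjusted p = 0.198). Of 8 myeloid markers 6 were higher (median 0.11), and 1 had a mean above background. Lyz2, a lysozyme of myeloid cells, was at 6.58 in PLZF_ON replicate 3 and between 3.96 and 4.48 on the other arrays. The 3 plasma cell markers had a median of 0.055. The plasmacytoid dendritic cell median was -0.22 (3 measured), the epithelial 0.11 (3 measured) and the B cell median -0.04. Bst2, the 1 plasmacytoid dendritic cell marker with a mean above background, was at -0.85 (adjusted p = 0.376). The stromal median was 0.031 (4 measured), with Pecam1, an adhesion molecule that T cells also express, at 1.01 (adjusted p = 0.183). The immature thymocyte median was -0.05 over 4 arrays and 0.68 over 6, where Cd24a, Dntt and Cd8a were at 9.58, 7.19 and 6.55 in PLZF_ON replicate 3.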
